A study of Rattus norvegicus with 16 samples.

Results

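Calcium, magnesium and vitamin D handling in the superficial kidney cortex was followed through 10 genes, which were found by matching their symbols to the TranscriptClusterIDs of the expression array (a TranscriptClusterID is 1 row of the array, usually 1 gene). Of these, 9 had a row, each exactly 1, among 36685 rows and 18166 genes with a row of their own: Calb1, Trpv5, Slc8a1, Trpm6, Cyp24a1, Vdr, Pth1r, Kl and S100g. Cyp27b1, the enzyme that makes active vitamin D, had no row under its symbol and was not analysed here. The 16 male Sprague-Dawley rats, 7 weeks old by the labels, had been on their diets for 7 days, and each gave 1 array from the outer cortex of 1 kidney. The FHS group drank 20% fructose and ate high-salt chow with 4% NaCl, the FNS group drank 20% fructose and ate normal-salt chow, the CHS group drank tap water and ate the high-salt chow, and the CNS group drank tap water and ate the normal-salt chow, with 4 rats in each. The chows came from different makers and differed in protein, carbohydrate and energy as well as NaCl, so every chow contrast compares 2 base diets. Their calcium, magnesium, phosphate and vitamin D contents are not given in the sources used here. The rats were housed in pairs, but the labels name no cages.

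Most filtered calcium is taken back in the proximal tubule, along with sodium and water, and in the thick ascending limb. The distal convoluted and connecting tubules reclaim the remainder by a regulated route through the cell. There calcium enters through the apical channel TRPV5, is carried by calbindins and leaves through the exchanger NCX1 and a calcium pump, and magnesium enters through TRPM6. Parathyroid hormone and active vitamin D raise calcium uptake along this route, and the kidney both makes and destroys active vitamin D.

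Of the 9 genes, 1 passed the test in 1 of the 4 comparisons between pairs of groups: S100g, the small calbindin D9k, was 1.50-fold higher in FHS than in FNS rats, a comparison in which 5.36% of all rows were called and 2.73% called higher. That call did not hold with median centring, with the arrays of the 2 groups alone, with the univariate test that the study's methods name for each row, or without any 1 of 7 rats. None of the other 8 passed in any comparison. The differences of the 9 genes between group means spanned -0.62 to 0.98 on the log2 scale, and the widest was that of Cyp24a1, the enzyme that breaks down active vitamin D, between CHS and CNS rats. Calb1, Trpv5, Slc8a1 and Trpm6 of the distal route varied together from rat to rat inside the groups, while S100g ran against them. All values are array signals on a log2 scale, on which a difference of 1 is a 2-fold difference. Tests were limma fits over all 36685 rows with Benjamini-Hochberg adjustment, called at an adjusted p under 0.05. A bulk slice cannot tell fewer cells of a type from less RNA in each.

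**Figure D1:**
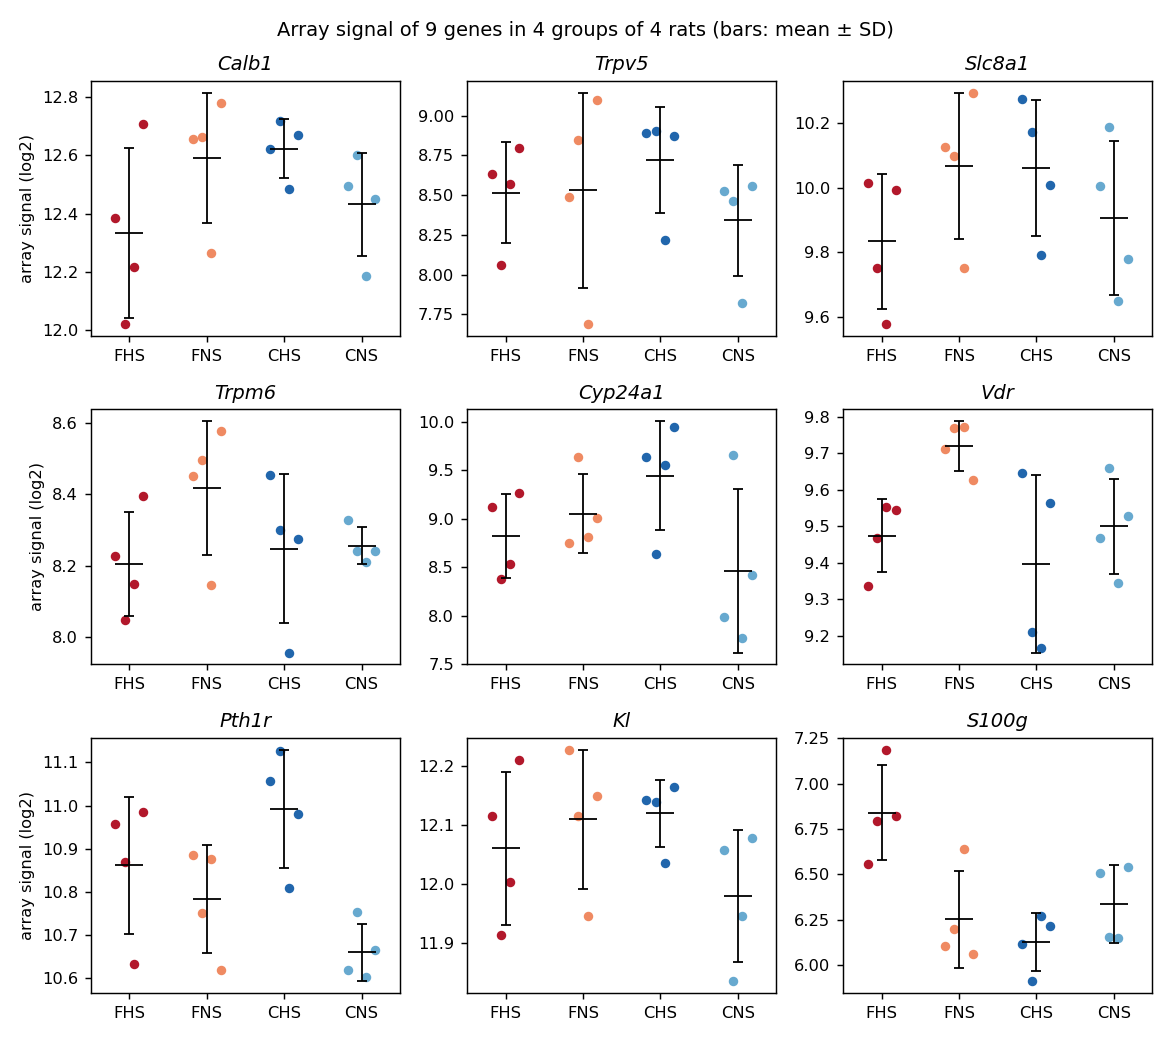
Array signal (log2, vertical axes, scaled to each gene) of the 9 genes in FHS, FNS, CHS and CNS rats. Points are rats, and bars give the mean ± SD of 4 rats. The 4 FHS rats stand at 6.56 or above for S100g, as does FNS rat 7 (6.64), while the other genes overlap between most groups.

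Of the segment markers looked at first, Slc34a1 and Slc12a3 were bright and Pvalb was dim. Slc34a1, the phosphate carrier of the proximal tubule, lay between 12.83 and 13.15 in the 16 rats, and Slc12a3, the sodium chloride cotransporter of the distal convoluted tubule, between 10.69 and 11.15. Pvalb, another marker of that segment, lay between 3.43 and 4.24, below the median of every array. Array medians were 5.33 to 5.44 in FHS, 5.27 to 5.33 in FNS, 5.25 to 5.34 in CHS and 5.26 to 5.29 in CNS rats, so the FHS arrays ran slightly higher. Correlations between arrays were 0.968 to 0.990.

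The calcium and magnesium entry channels came first along the route. Trpv5 (TranscriptClusterID 17791004), the apical calcium channel, measured 8.64, 8.06, 8.57 and 8.80 in the FHS rats and 8.48, 8.85, 7.69 and 9.10 in the FNS rats. It measured 8.89, 8.91, 8.22 and 8.87 in the CHS rats and 8.52, 8.46, 7.82 and 8.56 in the CNS rats. Each group held 1 rat well under its other rats (rats 14, 7, 11 and 3), and all 4 groups overlapped. The FNS rats spread most, with an SD of 0.62, against 0.32 in FHS, 0.34 in CHS and 0.35 in CNS rats. The group means of 8.52 in FHS, 8.53 in FNS, 8.72 in CHS and 8.34 in CNS rats therefore lay within the spread between rats.

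Trpm6 (17624453), the channel through which magnesium enters the distal convoluted tubule, averaged 8.20 ± 0.15 in FHS, 8.42 ± 0.19 in FNS, 8.25 ± 0.21 in CHS and 8.26 ± 0.05 in CNS rats (SD, n = 4 each). The lowest rat of all was rat 11 of the CHS group, at 7.96, and the highest was rat 8 of the FNS group, at 8.58. The CNS rats kept within 8.21 to 8.33, the narrowest spread of this gene. Its difference between FHS and FNS rats was -0.21 (95% interval -0.46 to 0.04, limma adjusted p = 0.330).

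Trpv5, Slc8a1 and Trpm6 of the distal route, which varied together with Calb1, were chosen for a look upstream. Windows before their annotated starts are shown from RefSeq on the rat build GRCr8. Each has the 250 bases before the start, written 5′ to 3′ on the strand of the gene. They were scanned on both strands for the DR3 vitamin D response element, a 15-base direct repeat with a spacer, scored over 12 fixed positions. Capitals mark the match, which had 2 mismatches. The window of Trpv5 lies at chr4:71529383-71529632 on the minus strand, that of Slc8a1 at chr6:19023309-19023558 and that of Trpm6, the second of 3 annotated starts, at chr1:225596058-225596307, both on the plus strand.
Trpv5: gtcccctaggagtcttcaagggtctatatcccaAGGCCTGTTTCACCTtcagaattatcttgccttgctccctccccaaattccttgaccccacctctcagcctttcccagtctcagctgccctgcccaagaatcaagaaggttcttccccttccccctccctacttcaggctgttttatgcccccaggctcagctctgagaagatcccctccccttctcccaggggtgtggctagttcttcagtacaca
Slc8a1: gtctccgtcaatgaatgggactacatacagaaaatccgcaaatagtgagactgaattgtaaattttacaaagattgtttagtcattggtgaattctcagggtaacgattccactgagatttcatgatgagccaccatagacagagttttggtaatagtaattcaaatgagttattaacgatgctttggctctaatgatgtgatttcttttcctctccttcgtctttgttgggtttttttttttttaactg
Trpm6: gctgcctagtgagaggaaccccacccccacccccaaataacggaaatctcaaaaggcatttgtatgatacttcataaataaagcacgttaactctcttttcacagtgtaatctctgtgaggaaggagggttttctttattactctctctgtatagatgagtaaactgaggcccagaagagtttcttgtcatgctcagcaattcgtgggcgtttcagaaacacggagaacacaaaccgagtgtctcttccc
The match of Trpv5 began 217 bases before the start, and the windows of Slc8a1 and Trpm6 held none. At 2 or fewer mismatches 41.6% of 33360 windows held a match, at 1 or fewer 4.93% and with no mismatch 0.312%, so the match of Trpv5 is of a common kind. An annotated start may not be the one used in kidney. Among the other genes with a window, Vdr held 2 such matches, Pth1r and Cyp27b1 held 1 each and Kl held none, and Calb1, Cyp24a1 and S100g had no window.

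Inside the distal cell, calcium is buffered and carried by the calbindins. Calb1 (17797389), calbindin D28k, measured 12.38, 12.02, 12.22 and 12.71 in the FHS rats and 12.66, 12.66, 12.27 and 12.78 in the FNS rats. It measured 12.62, 12.72, 12.48 and 12.67 in the CHS rats and 12.49, 12.60, 12.19 and 12.45 in the CNS rats. Of the 4 FHS rats, 3 lay below all 4 CHS rats, and the remaining one (rat 16) lay inside the CHS range. The difference between FHS and CHS rats was -0.29 (95% interval -0.60 to 0.02, limma adjusted p = 0.542), and that between FNS and CNS rats was 0.16 (-0.15 to 0.47, adjusted p = 1.00).

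S100g (17872263), calbindin D9k, is the smaller vitamin D-dependent carrier. It measured 6.56, 6.79, 7.19 and 6.82 in the FHS rats and 6.11, 6.20, 6.64 and 6.06 in the FNS rats. It measured 6.12, 5.91, 6.27 and 6.21 in the CHS rats and 6.51, 6.16, 6.15 and 6.54 in the CNS rats. Every FHS rat lay above every CHS and CNS rat, though the lowest FHS rat (6.56) was only just above the highest CNS rat (6.54). The highest FNS rat (rat 7) lay inside the FHS range. S100g averaged 6.84 ± 0.26 in FHS, 6.25 ± 0.27 in FNS, 6.13 ± 0.16 in CHS and 6.34 ± 0.22 in CNS rats (SD, n = 4 each).

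The difference of S100g between FHS and FNS rats was 0.59 on the log2 scale (SE 0.16, 95% interval 0.25 to 0.92), a fold of 1.50 (1.19 to 1.89) with a limma adjusted p of 0.0413. In that comparison 5.36% of all rows were called and 2.73% were called higher, against 1 of 9 genes here. Between FHS and CHS rats it was 0.71 (SE 0.16, 95% interval 0.38 to 1.04), and its unadjusted limma p of 0.000373 became 0.159 after adjustment. Here 1 row was called (0.00273%), none of the 9 genes was, and groups with FHS wholly above CHS made up 2.99% of rows. The 2 comparisons share the FHS rats. The interaction of fructose with chow was 0.80 (SE 0.22, unadjusted p = 0.00257, limma adjusted p = 0.761).

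The call between FHS and FNS rats was sensitive to its setting. Centring each array on its median left 0.51 with an adjusted p of 0.0821, and fitting the 8 arrays of the comparison alone gave 0.104 at the same difference. Leaving out any 1 of 7 rats (FHS 14, 15 or 16, FNS 5, 6 or 8, or CHS 9) moved the adjusted p to between 0.0516 and 0.116, and the difference stayed between 0.47 and 0.72 whichever rat was left out. The 4333 rows whose mean signal lay within 0.5 of that of S100g had a median difference of 0.02 in this comparison. Some cell type markers differed in it too. Of the 7 macrophage markers, 4 were above 0 and 3 below, with C1qa alone called (0.65, adjusted p = 0.0365), and their sum was 4653 to 5709 in FHS and 3497 to 4596 in FNS rats. Of the 6 distal convoluted tubule markers, Trpm6 included, 2 were above 0 and 4 below, with Stk39 alone called (-0.51, adjusted p = 0.0130), and their sum was 2687 to 2944 in FHS and 3041 to 3406 in FNS rats (linear signal). Of the 8 principal cell markers, 5 were above 0 and 3 below, with Aqp2, their water channel (1.07, adjusted p = 0.000861), and Fxyd4 (1.15, 0.0317) called higher, and their sum was 6931 to 8025 in FHS and 5892 to 8328 in FNS rats. Of the 4 endothelium markers, 1 was above 0 and 3 below, with Cdh5 alone called, lower in FHS rats. Of the 7 fibroblast and smooth muscle markers, 4 were above 0 and 3 below, with Col3a1 alone called, higher in FHS rats. The 7 intercalated cell markers had the lowest median of the marker lists (-0.32), with 2 above 0, 5 below and none called. Their sum was 2692 to 3286 in FHS and 2871 to 4329 in FNS rats. The part of all these markers in the S100g difference was not tested.

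**Figure D2:**
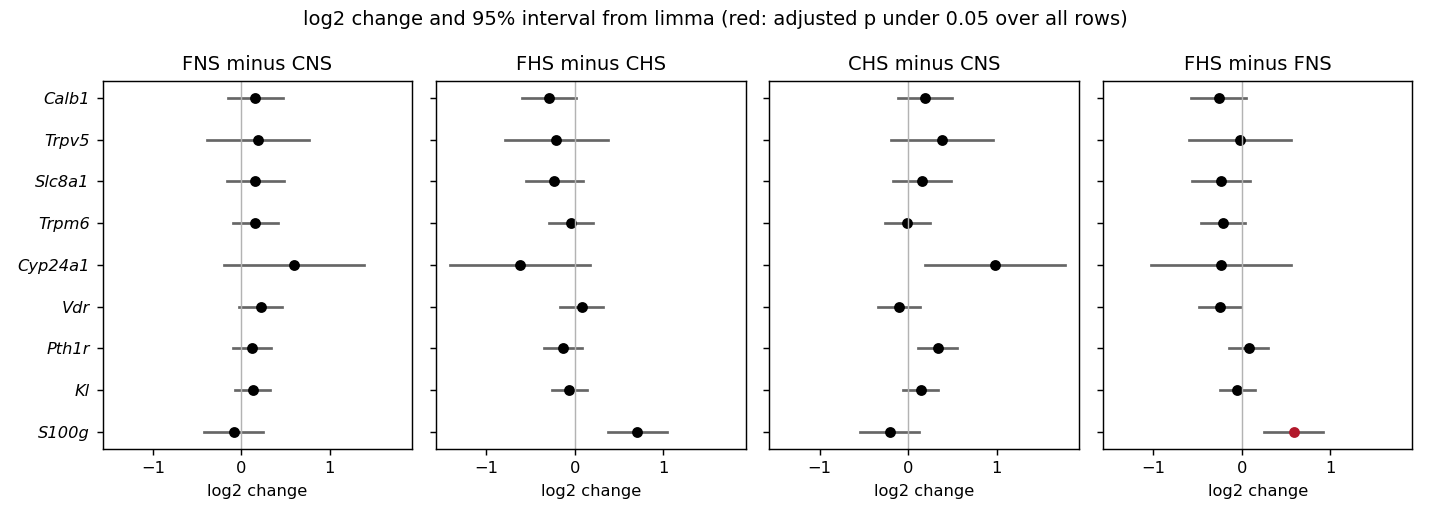
log2 change with 95% interval (horizontal axes) of the 9 genes in FNS minus CNS, FHS minus CHS, CHS minus CNS and FHS minus FNS rats. The red point, S100g at 0.59 in FHS minus FNS, is the only one with an adjusted p under 0.05, and Cyp24a1 has the widest intervals.

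Calcium leaves the distal cell through Slc8a1 (17819839), the sodium-calcium exchanger NCX1. It averaged 9.83 ± 0.21 in FHS, 10.07 ± 0.23 in FNS, 10.06 ± 0.21 in CHS and 9.91 ± 0.24 in CNS rats (SD, n = 4 each), and the groups all overlapped. Its difference was -0.23 between FHS and CHS rats (95% interval -0.55 to 0.10) and 0.16 between FNS and CNS rats (-0.16 to 0.49).

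The vitamin D genes followed. Cyp24a1 (17779711), which inactivates vitamin D metabolites, measured 9.12, 8.38, 8.53 and 9.27 in the FHS rats and 8.75, 9.64, 8.81 and 9.01 in the FNS rats. It measured 9.63, 8.63, 9.56 and 9.94 in the CHS rats and 7.99, 9.66, 7.77 and 8.42 in the CNS rats. In the water-drinking rats, 3 of 4 on the high-salt chow lay near or above 9.6 and 3 of 4 on the normal-salt chow lay under 8.5, while rats 10 and 2 stood on the other side. CHS minus CNS was 0.98 (SE 0.37, 95% interval 0.19 to 1.77, a fold of 1.97), with an unadjusted limma p of 0.0184 and an adjusted p of 0.171. Over the 16 fits that left out 1 rat it ran from 0.75 to 1.38, with limma adjusted p of 0.0285 to 0.370. Of these fits, 1 passed, that without rat 2 of the CNS group (1.38, 0.0285). FHS minus FNS was -0.23 (95% interval -1.02 to 0.56), and the interaction of fructose with chow was -1.21 (SE 0.53, limma adjusted p = 0.812).

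Vdr (17840592), the nuclear receptor of active vitamin D, measured 9.34, 9.47, 9.55 and 9.54 in the FHS rats and 9.71, 9.77, 9.77 and 9.63 in the FNS rats. It measured 9.64, 9.21, 9.17 and 9.56 in the CHS rats and 9.47, 9.66, 9.35 and 9.53 in the CNS rats. All 4 FHS rats lay below all 4 FNS rats. FHS minus FNS was -0.24 (95% interval -0.49 to -0.00, limma adjusted p = 0.229), so it was not called, and 6.12% of all rows had FHS wholly below FNS. FNS minus CNS was 0.22 (-0.02 to 0.46), with 1 CNS rat (rat 2) inside the FNS range. The CHS rats split into a higher pair and a lower pair.

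Pth1r (17856014), the receptor of parathyroid hormone in proximal and distal cells, measured 10.96, 10.87, 10.63 and 10.99 in the FHS rats and 10.88, 10.75, 10.88 and 10.62 in the FNS rats. It measured 11.06, 11.13, 10.81 and 10.98 in the CHS rats and 10.62, 10.75, 10.60 and 10.67 in the CNS rats. All 4 CHS rats lay above all 4 CNS rats, an order that 5.48% of all rows showed. CHS minus CNS was 0.33 (SE 0.10, 95% interval 0.12 to 0.55, a fold of 1.26), with a limma adjusted p of 0.0887, where 3.29% of rows and none of the 9 genes were called. The difference passed with the rows above the median signal alone (adjusted p = 0.0448) and with an intensity trend in the variance (0.0477), and did not pass in the other settings (0.0680 to 0.137) or without any 1 rat (0.0682 to 0.208). FHS minus FNS was 0.08 (-0.14 to 0.30).

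Kl (17675342), klotho, is the partner that lets FGF23 act on the kidney through FGF receptors. It averaged 12.06 ± 0.13 in FHS, 12.11 ± 0.12 in FNS, 12.12 ± 0.06 in CHS and 11.98 ± 0.11 in CNS rats (SD, n = 4 each). The 16 rats lay between 11.84 and 12.23, and the largest difference in the 4 comparisons was 0.14, between CHS and CNS rats.

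Fructose was compared on each base diet. On the normal-salt chow none of the 9 genes was called and no pair of groups was apart, while 0.0% of all rows were called and 3.12% had groups apart. Limma gave 1521 rows at an unadjusted p under 0.05, and the univariate test kept from the study's methods, run per row and adjusted, called 0 rows too. There, 8 of the 9 genes had a difference above 0 (median 0.16, all rows -0.00), against 49.7% of all rows, and S100g was the one below. Rows within 0.5 of the mean signal of the 8 genes above 0 had medians of -0.00 to 0.03. On the high-salt chow, 7 of 9 were below 0 (median -0.13, all rows 0.03), against 43.6% of all rows, and S100g and Vdr were above. Rows within 0.5 of the mean signal of the 8 genes other than S100g had medians of -0.07 to -0.04 there, so rows at that signal tended below 0 as well. In the interaction, 8 of 9 were below 0 (median -0.26, all rows 0.03), against 44.7% of all rows, with S100g above, and rows of like signal had medians of -0.11 to -0.04 for the 8 below 0. The interaction called 0.0% of rows, had 2235 rows at an unadjusted p under 0.05 and gave the 9 genes adjusted p of 0.761 to 0.898. Averaged over both chows, fructose called 1 row (0.00273%) and none of the 9 genes. These comparisons share groups, and Calb1, Trpv5, Slc8a1 and Trpm6 moved together, so the counts are not independent of each other.

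Chow was compared on each fluid. With water, 6 of 9 genes were above 0 (median 0.16, all rows 0.00), against 50.7% of all rows, and with fructose 7 of 9 were below 0 (median -0.21, all rows 0.04), against 43.1% of all rows. Rows within 0.5 of the mean signal of the 8 genes other than S100g had medians of -0.10 to -0.06 with fructose. Rows at that signal thus tended below 0 too. With water the same rows had medians of -0.02 to 0.01, so they did not tend above 0 there. Averaged over both fluids, 13.3% of all rows were called and none of the 9 genes, with differences between -0.17 for Vdr and 0.38 for Cyp24a1. Pth1r was 0.21 higher with the high-salt chow (SE 0.07, limma adjusted p = 0.0719). That value passed with quantile normalization (0.24, 0.0453), with the rows above the median signal (0.0387), with an intensity trend (0.0407), and without CHS rat 11 (0.0449) or FHS rat 15 (0.0337). It did not pass with median centring (0.16, 0.183), with array weights (0.0608), or in the other 14 fits that left out 1 rat (up to 0.139).

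In the order of the group means, neighbouring groups overlapped for every gene except S100g. Its lowest FHS rat (6.556) lay only just above the highest CNS rat (6.54), the next group down, while the means lay 0.50 apart. The share of all rows with FHS wholly above CNS was not counted. CHS stood highest for Calb1, Trpv5, Cyp24a1, Pth1r and Kl, FNS for Slc8a1, Trpm6 and Vdr, and FHS for S100g. CNS stood lowest for Trpv5, Cyp24a1, Pth1r and Kl, FHS for Calb1, Slc8a1 and Trpm6, and CHS for Vdr and S100g.

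Within groups Calb1, Trpv5, Slc8a1 and Trpm6 of the distal route varied together, while S100g ran against them. After each value was set against its group mean, the 6 pairs among Calb1, Trpv5, Slc8a1 and Trpm6 correlated over the 16 rats with Pearson's r of 0.741 to 0.852 and Spearman's rho of 0.594 to 0.794. The closest were Trpv5 with Trpm6 (0.852) and Calb1 with Trpv5 (0.851), and the least close was Trpv5 with Slc8a1 (0.741). The r was 0.617 to 0.904 over the 8 high-salt rats and 0.739 to 0.943 over the 8 normal-salt rats. It was 0.590 to 0.852 without the 2 rats farthest from the median of the first gene of each pair. The rats left out were 14 and 7 where Calb1 came first, and 3 and 7 where Trpv5 did. They were 11 and 7 for Slc8a1 with Trpm6. Each check thus kept some of rats 14, 7, 11 and 3, the lowest of their groups for both Calb1 and Trpv5. Whether the correlations hold without all of these rats was not tested. For each pair, 0.0382% to 0.581% of all rows correlated with the first gene at least as closely, the genes of the pair included. The rats share slice, RNA and array among these genes, so the values are a description and carry no p.

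**Figure D3:**
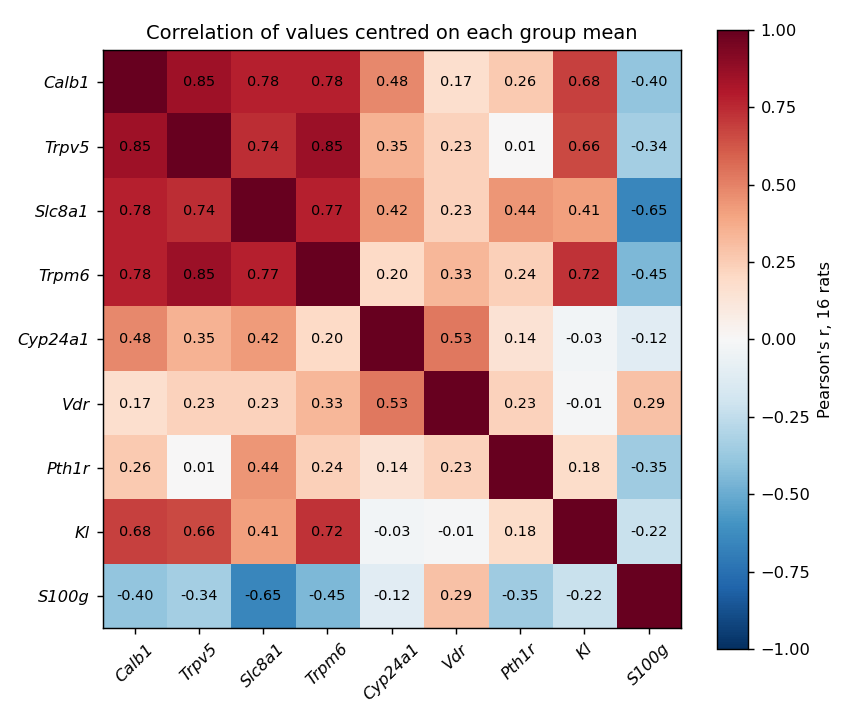
Pearson's r (colour and printed number) between the 9 genes over 16 rats, after values were centred on their group means. The 4 genes at the upper left, Calb1, Trpv5, Slc8a1 and Trpm6, form a block of 0.74 to 0.85, and S100g is negative to each of them.

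Kl correlated with the block at 0.72 with Trpm6, 0.68 with Calb1, 0.66 with Trpv5 and 0.41 with Slc8a1, and Cyp24a1 correlated at 0.53 with Vdr. S100g ran the other way, from -0.34 with Trpv5 to -0.65 with Slc8a1. Rats 14, 7 and 3 were the lowest of their groups for both Calb1 and Trpv5, and so was rat 11. The block also moved with cell type markers. Averaged over the 7 intercalated cell markers, the deviations correlated with the 4 genes at 0.710 to 0.890, and over the 4 podocyte markers at 0.445 to 0.645. Over the 5 other markers of the distal convoluted tubule, the dim Pvalb among them, they correlated at 0.476 to 0.631. Over the 8 principal cell markers they correlated at 0.374 to 0.630. Over the 7 thick ascending limb markers the correlation was -0.689 to -0.541. S100g correlated at -0.755 with the 8 principal cell markers and at 0.692 with the 11 proximal markers. How far the share of each segment in a slice sets these values was not tested.

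**Figure D4:**
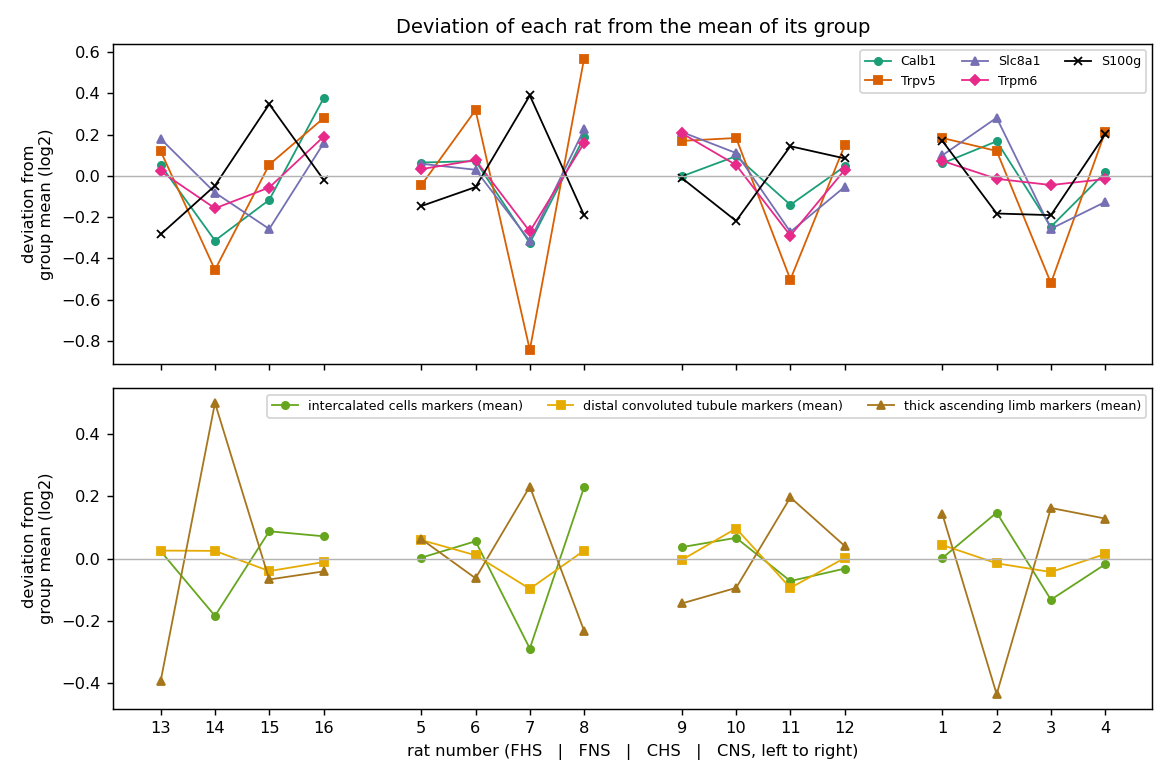
Deviation of each rat from its group mean (log2, vertical axes) for Calb1, Trpv5, Slc8a1, Trpm6 and S100g in the upper panel and for the averaged markers of 3 segments in the lower panel, by rat number with FHS, FNS, CHS and CNS from left to right. Rats 14, 7, 11 and 3 dip together in Calb1, Trpv5 and the intercalated cell markers.

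The genes most like each member were named by the highest r of the centred values among genes above the median signal. For Trpm6 the closest was Scnn1b (0.933), a subunit of the sodium channel of the distal nephron. For Trpv5 it was Nmnat1 (0.942), an enzyme of NAD synthesis, followed by Tmem52b (0.928), and for Calb1 Vps29 (0.888), Deptor (0.879) and Cldn1 (0.868). Slc8a1 was closest to Vcf1 (0.911) and Kl to Bmp2k (0.902). Cyp24a1 was closest to Mt1 (0.862), a metallothionein, Vdr to Nrde2 and Daxx (0.868 each), Pth1r to Mcph1 (0.871) and S100g to Ugp2 (0.864), the enzyme that makes UDP-glucose. These are the top of many rows over 16 rats.

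Of the other genes of these pathways, measured as 4 lists of 18, 16, 18 and 15 genes, 10 were called for chow averaged over both fluids. Of all rows, 13.3% were called there, 6.49% higher and 6.77% lower. The share called in the 4 lists together was thus near that of all rows. No gene of the 4 lists was called for fructose on either chow, for fructose averaged over the chows, or for the interaction.

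Among 18 measured of 20 other calcium transport genes, 1 was called higher and 1 lower with the high-salt chow (median of the list -0.02, all rows 0.02). Cldn2, which forms a paracellular pore for cations in the proximal tubule, averaged 9.07 ± 0.11 in FHS, 8.89 ± 0.07 in FNS, 9.14 ± 0.11 in CHS and 8.88 ± 0.11 in CNS rats (SD, n = 4 each), a rise of 0.23 (limma adjusted p = 0.0300). Rab11a, a small GTPase of recycling endosomes, fell by 0.25 (adjusted p = 0.0320). Sgk1, a kinase that raises channels at the membrane, had a difference of 0.52 (adjusted p = 0.105).

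Among 16 measured of 20 other magnesium genes, 1 was called higher and 2 lower (median 0.01). Kcnj10, a basolateral potassium channel of the distal convoluted tubule, averaged 7.01 ± 0.07 in FHS, 7.47 ± 0.11 in FNS, 7.13 ± 0.37 in CHS and 7.36 ± 0.04 in CNS rats, and fell by 0.35 with the high-salt chow (limma adjusted p = 0.0261). All 4 FHS rats lay below all 4 FNS rats for it, an order that 6.12% of all rows showed, and the difference of -0.47 was not called (adjusted p = 0.0608). Bsnd, the barttin subunit of kidney chloride channels, rose by 0.26 (adjusted p = 0.0395), and Cnnm4, of a family of magnesium transporters, fell by 0.18 (adjusted p = 0.0482).

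All 18 other genes of vitamin D metabolism and action were measured, and 1 was called higher and 3 lower (median -0.12). Ncor1, a corepressor of nuclear receptors, averaged 9.81 ± 0.05 in FHS, 10.20 ± 0.07 in FNS, 9.86 ± 0.10 in CHS and 10.20 ± 0.08 in CNS rats. No high-salt rat reached the lowest normal-salt rat, but the share of all rows with such an order was not counted. It fell by 0.36 averaged over both fluids (limma adjusted p = 0.000775), by 0.33 with water (0.0334), where 1.97% of all rows were called lower, and by 0.39 with fructose (0.0113), where 2.63% were. With the arrays of each comparison alone, neither of the last 2 was called (0.120 with water, 0.0545 with fructose), and the call with water was also lost in 6 of 16 fits that left out 1 rat. Smarca4, a chromatin remodelling ATPase, fell by 0.29 (adjusted p = 0.0163), Ncoa1, a coactivator of nuclear receptors, by 0.24 (0.0405), and Sqstm1, an autophagy adaptor, rose by 0.32 (0.0179). These 4 act on many pathways besides that of vitamin D.

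Among 15 measured of 21 other genes of parathyroid hormone and FGF23 signalling, none was called higher and 1 lower (median 0.03). Galnt3, which glycosylates FGF23 in bone, averaged 8.97 ± 0.28 in FHS, 9.17 ± 0.16 in FNS, 8.91 ± 0.34 in CHS and 9.55 ± 0.11 in CNS rats. It fell by 0.42 averaged over both fluids (limma adjusted p = 0.0259) and by 0.64 with water (0.0467).

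**Figure D5:**
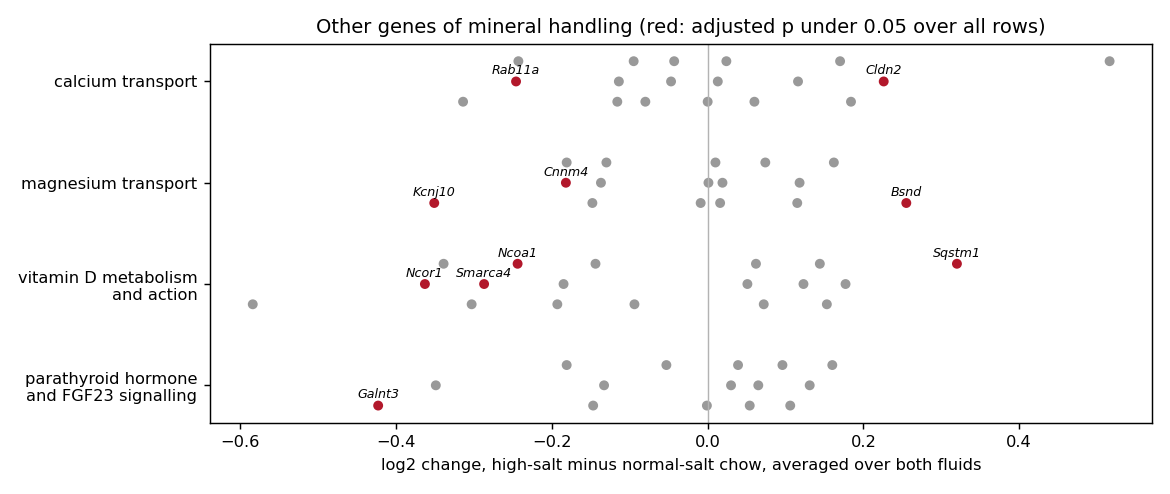
log2 change between high-salt and normal-salt chow, averaged over both fluids (horizontal axis), of the measured genes in the 4 lists (rows; vertical offsets only separate points). The 10 red, named genes have an adjusted p under 0.05, 7 of them lower, with Galnt3 at -0.42 and Sqstm1 at 0.32.

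Several of these calls lay close to the threshold. Median centring ended those of Cldn2 (adjusted p = 0.116), Bsnd (0.101) and Sqstm1 (0.0533), quantile normalization ended those of Cnnm4 (0.0844), Smarca4 (0.0606) and Ncoa1 (0.109), and leaving out 1 rat ended that of Galnt3 with water in 13 of 16 fits and that of Rab11a in 8. Some cell type markers were called in the same chow comparison as these 10 genes. Of 8 principal cell markers, 4 were above 0 and 4 below, and Aqp2 (0.86, limma adjusted p = 8.51e-05) and Scnn1g (0.35, 0.0152) were called higher. Of 7 intercalated cell markers, 2 were above 0 and 5 below, and 3 were called lower (Atp6v1b1, Foxi1 and Atp6v1g3, from -0.43 to -0.29). In the other lists, Slc5a1 (-0.65), Kcnj1 (-0.38), Stk39 (-0.45), Wt1 (-0.41), Cdh5 (-0.63) and Myh11 (-0.40) fell, and C1qa (0.51) and Col3a1 (0.27) rose (limma adjusted p of 0.00125 to 0.0356). Most of these lists were mixed. Markers above and below 0 numbered 7 and 4 for the proximal tubule and 3 and 4 for the thick ascending limb. They numbered 4 and 2 for the distal convoluted tubule, 0 and 4 for podocytes and 1 and 3 for endothelium. For macrophages they numbered 4 and 3, and for fibroblasts and smooth muscle 4 and 3. The summed signal of the 7 intercalated markers was 2692 to 3286 in FHS, 2871 to 4329 in FNS, 3161 to 3474 in CHS and 3430 to 4300 in CNS rats. That of the 7 thick ascending limb markers was 11726 to 20746 in FHS, 11923 to 16811 in FNS, 13272 to 17137 in CHS and 11186 to 16331 in CNS rats. Their part in the pathway genes' differences was not tested.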

How the data were processed

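The authors deposited log2 expression values, 1 array per rat, made from the array images by robust multi-array averaging in Affymetrix Expression Console with median polish, 1 value per TranscriptClusterID of the RaGene-2_0-st array. Such values are compressed for dim rows, and depth has no meaning for arrays, so their number limits the precision. Symbols came from the platform's probe annotation: 18511 rows had 1 symbol, 575 several and 17599 none. All 16 columns mapped to rats.

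A mean per group was fitted to each of 36685 rows with limma 3.58.1 in R 4.3.3, all 16 arrays sharing 1 residual variance, and 7 contrasts were tested two-sided with Benjamini-Hochberg adjustment over all rows. Scripts were tested on simulated data. The study's methods name a multivariate method without a test per gene, ANOVA, which was kept as an alternative, and Bayesian analysis of variance (BAMarray), which was not run here. p-values measure the spread between rats, and cages could not be modelled. Other alternatives were rows above the median mean, quantile normalization, median centring, an intensity trend, array weights, the arrays of a contrast alone and leaving out each rat. Named were the 10 genes, up to 4 of each list with the smallest p per contrast, and the 3 genes most correlated with each member. Members and lists were chosen with earlier results of these data known. Plots and tables used Python 3.11.15.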

Additional observations from a re-analysis of the deposited data

Results flagged for a closer look

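Of 36 groups of 4 rats (9 genes in 4 groups), 2 held a rat far from the other 3, where chance alone marks about 1 group in 20. Both were for Trpv5. In the CHS group rat 11 measured 8.22, with the other 3 rats at 8.87 to 8.91, and in the CNS group rat 3 measured 7.82, with the other 3 at 8.46 to 8.56. The same 2 rats were also the lowest of their groups for Calb1, Slc8a1 and Trpm6.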

How the results depend on the processing

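Rows called moved by more than 1.5 times in some settings. For FHS minus CHS, 1 row was called, against 22 with rows above the median mean, 3 with an intensity trend, and 0 both with the arrays of the contrast alone and with the methods' ANOVA after adjustment. For CHS minus CNS, 1208 rows compared with 533 for its own arrays and 400 by ANOVA, and for FHS minus FNS 1968 compared with 733 and 214. Unadjusted, ANOVA gave 1887 rows for FNS minus CNS, 2828, 6148 and 6852 for these 3 in turn. Fructose averaged over chows called 1 row, and 0 with median centring. Leaving out 1 rat gave 0 to 0 rows for FNS minus CNS, 0 to 4 for FHS minus CHS, 562 to 1468 for CHS minus CNS, 868 to 2186 for FHS minus FNS, 0 to 4 for fructose averaged, 3854 to 5111 for chow averaged and 0 to 1 for the interaction. Median centring turned the split of calls from 1002 higher and 966 lower to 639 and 1529 in FHS minus FNS, and from 2381 and 2482 to 1597 and 3214 in chow averaged.

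Of 387 values of the 9 genes under the settings other than leaving out a rat, 367 kept direction and side of the threshold, 12 reversed, 5 gained the call (all Pth1r) and 3 lost it (all S100g, ANOVA adjusted p = 0.184 the weakest). The 12 were small, uncalled differences. Quantile normalization gave Trpv5 0.055 in FHS minus FNS and 0.007 for fructose averaged, Slc8a1 0.007 for chow averaged, Trpm6 0.023 in CHS minus CNS, Cyp24a1 0.009 and Pth1r 0.005 for fructose averaged, and Kl 0.038 in FHS minus FNS. Array weights gave Trpv5 0.094, Slc8a1 0.007 and Cyp24a1 0.152 for fructose averaged, and median centring gave Kl -0.011 for fructose and -0.003 for chow averaged. Leaving out 1 rat reversed 38 of 1008 values, with ranges for Calb1 of -0.097 to 0.018 (chow averaged), Trpv5 -0.001 to 0.47 (FNS minus CNS), -0.295 to 0.176 (FHS minus FNS) and -0.104 to 0.132 (fructose averaged), Slc8a1 -0.079 to 0.019 (fructose averaged) and -0.092 to 0.007 (chow averaged), Trpm6 -0.138 to 0.027 (FHS minus CHS) and -0.078 to 0.087 (CHS minus CNS), Cyp24a1 -0.148 to 0.186 and Pth1r -0.035 to 0.034 (both fructose averaged). The cause was not tested.

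Of the 10 pathway genes called for chow averaged, median centring ended the calls of Cldn2 (0.18, adjusted p = 0.116), Bsnd (0.21, 0.101) and Sqstm1 (0.27, 0.0533), and quantile normalization those of Cnnm4 (-0.16, 0.0844), Smarca4 (-0.24, 0.0606) and Ncoa1 (-0.20, 0.109). Ncor1 kept its call under all 21 alternatives run for chow averaged. Leaving out 1 rat at a time ended the call of Cnnm4 in 14 of 16 fits, Ncoa1 in 13, Bsnd in 10, Cldn2 and Rab11a in 8, Galnt3 in 3 and Kcnj10 in 2.

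No paired analysis was possible because the rats of different groups share no numbers. The choice among several rows of a symbol was not run, as each of the 9 genes had 1 row. With 4 rats a group and 1 array each, intervals were wide for Trpv5 and Cyp24a1, and RMA values give no background level for the dim S100g.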
